A study of Mus musculus with 12 samples.

Results

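The lesion response of the Tet1 mutant spinal cord was read from 6 of the 12 RNA-seq libraries of the series, 3 from tissue labelled 4-day-post-lesion (4dpl) and 3 from unlesioned tissue, chosen by their genotype and treatment labels. The mutant mice were Olig1cre/+;Tet1fl/fl at postnatal day 60, with both Tet1 alleles floxed and a cre allele at the Olig1 locus that acts in cells which have expressed Olig1, so that microglia, macrophages, astrocytes and blood cells of the preparation are not its intended target. Lesions were made by injection of lysolecithin (LPC), a lipid that strips myelin, into the ventrolateral white matter, and the unlesioned tissue was taken contralateral to the injection. The control mice were Olig1+/+;Tet1fl/fl, with the same floxed alleles and no cre, and gave 3 unlesioned and 3 4dpl libraries of the same age. They serve for comparison, and their libraries also enter the filter, the scaling and the fit behind the mutant p-values. The dissociated cells were passed over a Percoll gradient, which enriches for oligodendroglial cells without sorting them, and the labels do not say whether libraries that share a number come from 1 mouse. Where nothing says so, p-values measure only the spread between these libraries, which may be technical. The total count was between 34805086 and 45797435 in the mutant unlesioned libraries and between 46226566 and 64423475 at 4dpl.

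Tet1, on chromosome 10 from 62804570 to 62908996 of GRCm38, was counted in every mutant library. Its level, in CPM (counts scaled to library size with TMM factors), was 16.4, 9.94 and 12.1 unlesioned and 13.4, 10.9 and 21.5 at 4dpl. The groups overlapped, and the log2 fold change was 0.25 (standard error 0.27, adjusted p = 0.519). The count covers the whole gene and every cell of the preparation, so a deletion of 1 exon in 1 lineage need not show in it. Olig1, a transcription factor of the oligodendrocyte lineage and the locus of the cre allele, was at 293, 88.7 and 197 CPM unlesioned and 192, 233 and 623 CPM at 4dpl, again with overlap. The high value at 4dpl is that of replicate 3.

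When myelin is destroyed, microglia and incoming macrophages take up the debris through scavenger receptors and bridging proteins that tag dying membranes. The engulfed lipid and protein are broken down in acidified lysosomes. Cholesterol, which cannot be degraded, is handed on through oxysterol-activated nuclear receptors and the ABC transporters they control, or stored as esters in lipid droplets. Iron and heme from damaged cells are detoxified by heme oxygenase and ferritin, and astrocytes around the lesion become reactive. New oligodendrocytes form later from progenitors. In bulk tissue, fewer cells of a type and less RNA per cell cannot be told apart.

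At the thresholds of p under 0.01 and adjusted p under 0.05 in edgeR's quasi-likelihood test, 7 genes were higher at 4dpl in the mutant (0.0225% of the 31109 tested) and 35 were lower (0.113%). The 7 were Angptl4, Serpina3n, Cxcl14, Fabp5, Gpx3, Gm6977 and Slc27a1. Adjusted p-values were packed near the threshold, the smallest being 0.0445, and at an adjusted p under 0.10 there were 2971 higher (9.55%) and 3431 lower (11.0%). How those calls split depended on the scaling. TMM over all genes raised the whole body of expressed genes: the median log2 fold change was 0.51 over the 11553 genes with a mean of at least 5 CPM and -1.09 over the 19556 genes below that level. When library sizes were scaled on the 9654 genes with a mean of at least 10 CPM, here the expressed-gene scale, log2 fold changes shifted down by a median of 0.53, and the calls at an adjusted p under 0.10 became 174 higher (0.559%) and 5251 lower (16.9%). Among genes of at least 5 CPM the split was 2846 higher (24.6%) and 40 lower on the first scale. On the second it was 151 higher (1.31%) and 196 lower (1.70%). At the stricter thresholds the second scale gave 26 higher and 1100 lower genes. DESeq2, which the study used, gave 1333 and 3962, limma-voom 386 and 501, and a filter at a mean of 1 CPM 2 and 23. Leaving out 1 library gave between 0 and 2615 higher and between 0 and 1883 lower. The largest counts were those without control unlesioned replicate 1.

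**Figure D1:**
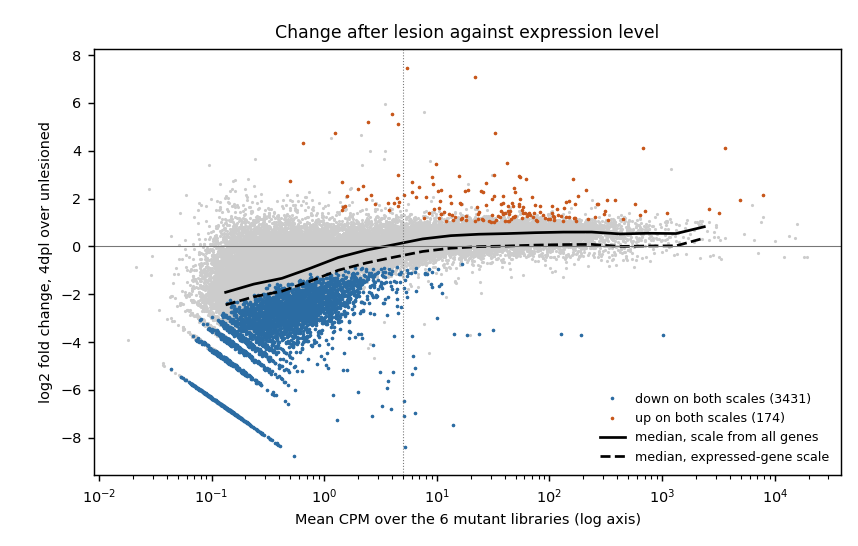
Log2 fold change of the mutant, 4dpl over unlesioned, against the mean CPM over the 6 mutant libraries (log axis), 1 point per gene tested, with genes called in the same direction on both scales in colour. The solid line is the median in each level bin with TMM over all genes and the dashed line the median on the expressed-gene scale; well-expressed genes sit near 0.51 on the first and near 0 on the second, low genes below 0 on both.

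A gene is therefore said below to have risen or fallen only where it passed an adjusted p of 0.10 in the same direction on both scales, a combination chosen after the values were seen. By that rule 174 genes rose (0.559%) and 3431 fell (11.0%), and among genes of at least 5 CPM 151 rose (1.31%) and 40 fell (0.346%). Of the 151, 125 had every 4dpl library above every unlesioned library on both scales, which held for 687 of all 11553 genes at that level (5.95%). Of the 40, 28 had every 4dpl library below, which held for 66 (0.571%). Calls and separation come from the same libraries, so these shares describe the called genes and do not test the calls. Of the 3431 falls, 3391 were in genes under 5 CPM and 848 had at most 3 counts over the 3 4dpl libraries together. The calls depended on single libraries: without mutant unlesioned replicate 1 there were 610 rises and 4124 falls, without mutant 4dpl replicate 1 there were 31 and 713, without mutant unlesioned replicate 2 there were 0 and 12, without mutant 4dpl replicate 2 there were 0 and 1, and without mutant unlesioned or 4dpl replicate 3 there were 0 and 0. For that reason the levels of most named genes are given per library. The range of a change with 1 mutant library left out is printed for some genes and lists only. For a selection of named genes it is drawn in the plot of log2 fold changes with each mutant library left out in turn. Other changes are printed without that range. Unless a sentence says otherwise, levels and log2 fold changes below are on the scale from all genes, and a second log2 value is that on the expressed-gene scale.

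The genes that mark phagocytes of damaged white matter had the highest median change of the lists described. Of 24 genes on a list of disease-associated phagocyte markers, 19 were higher at an adjusted p under 0.10 with TMM over all genes and 11 rose on both scales, while none fell, and all 24 had a mean of at least 5 CPM. The median log2 fold change of the list was 1.55, or 1.04 on the expressed-gene scale, beside -0.18 and -0.71 for all genes tested and 0.51 and -0.01 for those of at least 5 CPM. Spp1, which encodes the secreted matrix protein osteopontin, was at 587, 93.2 and 493 CPM in the 3 unlesioned libraries and at 10295, 6152 and 4080.4 CPM at 4dpl. The groups were far apart. The change came to 4.13 on the log2 scale (standard error 0.81, adjusted p = 0.0522) or 3.66 (adjusted p = 0.0408), and with 1 mutant library left out it ranged from 3.68 to 4.57 on the first scale. Apoe, the apolipoprotein that carries cholesterol between brain cells, was at 4352, 1116 and 3276 CPM unlesioned and 13339, 13179 and 12315 CPM at 4dpl, where the 3 libraries lay close together. Its log2 fold change was 2.15 (standard error 0.55) or 1.67. Fabp5, a carrier of fatty acids and 1 of the 7 genes past the stricter threshold, was at 215, 101 and 166 CPM and then at 634, 598 and 601 CPM, which is 1.93 on the log2 scale (standard error 0.34, adjusted p = 0.0456) or 1.43 (adjusted p = 0.0417).

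Igf1, a growth factor that acts on oligodendrocyte progenitors, was low in unlesioned cord at 22.1, 4.41 and 10.6 CPM and reached 145, 109.6 and 32.3 CPM at 4dpl. The lowest 4dpl library, replicate 3, was still above the highest unlesioned one, and the log2 fold change was 2.95 (standard error 0.71) or 2.50. Cd68, a lysosomal membrane protein used to stain phagocytes, was at 341, 154 and 285 CPM unlesioned and 1180.5, 875 and 610.4 CPM at 4dpl (log2 fold change 1.77, standard error 0.38, or 1.28). Cd63, a membrane protein of late endosomes, hardly varied in unlesioned cord, at 364, 348 and 391 CPM, and was at 1022, 979.7 and 724 CPM at 4dpl. Cst7, an inhibitor of lysosomal proteases, Ch25h, which makes 25-hydroxycholesterol, and Lpl, which releases fatty acids from lipoproteins, also rose, by 1.26, 2.29 and 2.34 on the log2 scale, but their groups overlapped on at least 1 scale. Lpl shows why: it was at 141, 16.7 and 51.9 CPM unlesioned and 566, 378 and 119.7 CPM at 4dpl, so that 4dpl replicate 3 lay below unlesioned replicate 1. Gpnmb, a membrane glycoprotein of lipid-laden phagocytes, was at 228, 18.3 and 444 CPM and 2706, 2443 and 1347 CPM with full separation. Its log2 fold change of 3.23 (standard error 1.08) passed on the scale from all genes (adjusted p = 0.0766) and missed on the expressed-gene scale (adjusted p = 0.112).

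**Figure D2:**
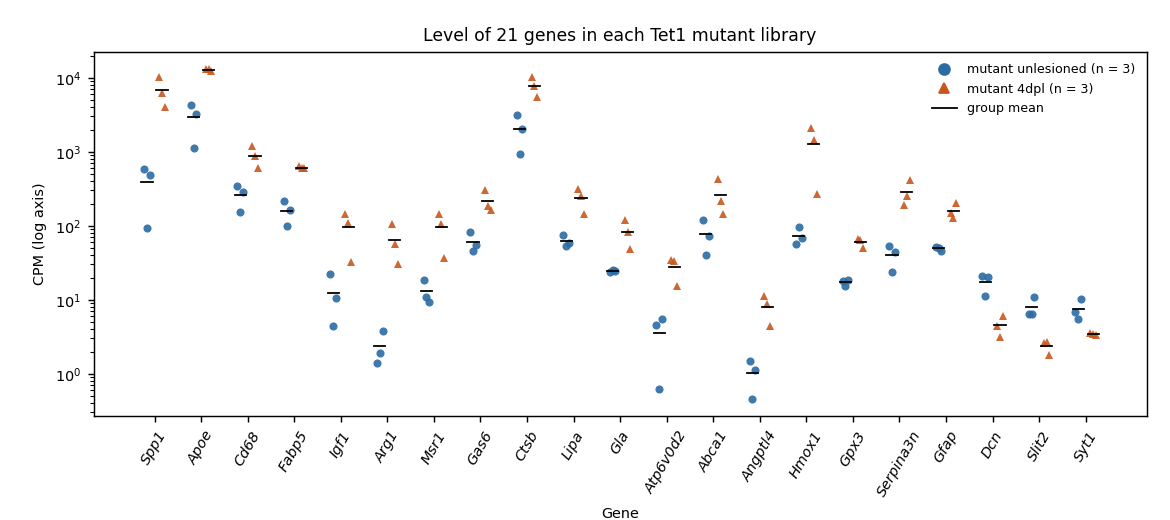
CPM (log axis) of 21 genes in the 6 mutant libraries, unlesioned as circles and 4dpl as triangles, with the mean of each group of 3 as a bar. From Spp1 to Gfap the 4dpl values lie above the unlesioned ones, and for Dcn, Slit2 and Syt1 they lie below.

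Markers of resting microglia seldom passed. All 14 such genes had a log2 fold change above 0 on the scale from all genes, 1 of them, Trem2, passed an adjusted p of 0.10 there, and none rose on both scales. P2ry12, a purinergic receptor lost by activated microglia, was at 648, 158 and 345 CPM unlesioned and 802, 504 and 584 CPM at 4dpl, with overlap. Cx3cr1, the fractalkine receptor, was at 1199.9, 383 and 723 CPM and 1735, 1089.8 and 1425 CPM, also with overlap. The summed level of the 14 genes was 12177, 4009.9 and 7374 CPM unlesioned and 17228, 11243 and 12906 CPM at 4dpl (exact permutation test, two-sided, n = 3 and 3, p = 0.2, in a design that can reach no less than 0.1). The summed level of the 24 phagocyte markers was 18143, 7195 and 13016 CPM and then 60635, 48845 and 36609 CPM, every 4dpl library above every unlesioned one (same exact test, p = 0.1). Unlesioned replicate 2 was lowest in both sums and 4dpl replicate 1 was highest in both.

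Among 14 markers of monocytes and infiltrating macrophages, 4 rose on both scales and none fell. They were Arg1, Ms4a7, Pf4 and Fn1. Arg1, the arginase of alternatively activated macrophages, was nearly absent from unlesioned cord at 1.38, 1.93 and 3.83 CPM and reached 104, 55.99 and 30.7 CPM at 4dpl. That log2 fold change of 4.74 (standard error 1.10) or 4.22 was the largest among the genes of at least 5 CPM that rose with separate groups on both scales. Igkv13-85, an immunoglobulin segment with a larger fitted change of 7.44, was at 0.136, 0.268 and 31.8 CPM at 4dpl, so that replicate 3 alone carried it. Ms4a7, a surface protein of macrophages that is scarce in resting microglia, was at 9.20, 2.40 and 9.15 CPM unlesioned and 90.7, 103 and 36.8 CPM at 4dpl. Pf4, a chemokine of platelets and border macrophages, was at 10.98, 6.75 and 5.03 CPM and 75.7, 47.5 and 18.8 CPM. Fn1, fibronectin, was at 136, 151 and 117 CPM and 759, 451 and 323 CPM. Cd5l, a secreted protein of tissue macrophages that was on no list, was at 3.21, 0.431 and 1.22 CPM and 30.2, 14.4 and 9.38 CPM, a log2 fold change of 3.47 (standard error 0.68). The other 10 members of the list passed on neither scale, and the summed level of all 14 was 2805, 9219 and 5369.9 CPM unlesioned and 3615, 9291 and 3429 CPM at 4dpl, highest in replicate 2 of each group.

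Uptake receptors and the proteins that bridge them to debris rose in part. Of 24 genes, 10 were higher with TMM over all genes, 6 rose on both scales and none fell. Of all genes of at least 5 CPM, 24.6% were higher on the first scale and 1.31% rose on both. The list median was 0.99 or 0.53. With 1 mutant library left out it ranged from 0.71 to 1.55, or from 0.20 to 0.93 on the expressed-gene scale. Gas6, the bridging ligand of the TAM receptor kinases, was at 81.4, 45.2 and 54.7 CPM unlesioned and 308, 184 and 164 CPM at 4dpl (log2 fold change 1.86, standard error 0.36, or 1.37). Mfge8, which bridges phosphatidylserine to integrins, was at 51.00, 19.9 and 37.03 CPM and 99.7, 75.8 and 109.7 CPM. Both bridging genes had separated groups. The scavenger receptors came next: Msr1 was at 18.5, 11.04 and 9.26 CPM and 146, 105 and 36.9 CPM, a log2 fold change of 2.89 (standard error 0.68) or 2.41. Colec12, a collectin scavenger receptor, had 2.10 (standard error 0.41) or 1.61 with separated groups. Stab1, which clears oxidized lipoproteins, and Cd36, a fatty acid and lipoprotein receptor, had 2.10 and 1.98 on the log2 scale with groups that overlapped on at least 1 scale, Cd36 being at 146, 93.2 and 21.6 CPM at 4dpl against 29.6, 18.00 and 18.4 CPM unlesioned. Of 19 complement genes, 7 were higher with TMM over all genes and 1 rose on both scales, beside the same shares of 24.6% and 1.31%. It was C3ar1, the receptor for the fragment C3a, at 207, 48.6 and 104 CPM and 577, 370.2 and 277 CPM.

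Lysosomal enzymes were higher across nearly the whole list. Of 33 hydrolases and their cofactors, all with a mean of at least 5 CPM, 27 were higher with TMM over all genes, 10 rose on both scales and none fell, where 24.6% of all genes at that level passed the first criterion and 1.31% rose on both scales. All 33 had a log2 fold change above 0 on the scale from all genes, and 32 did on the expressed-gene scale. The list median was 1.16 or 0.68 and ranged from 0.93 to 1.54 on the first scale and from 0.44 to 0.93 on the second with 1 mutant library left out. Lipa, the acid lipase that frees cholesterol from its esters, was at 75.5, 52.97 and 59.3 CPM unlesioned and 316, 252 and 143 CPM at 4dpl. Gla, alpha-galactosidase A, barely varied in unlesioned cord, at 24.1, 25.1 and 24.3 CPM, and was at 119, 83.4 and 48.4 CPM at 4dpl. Their log2 fold changes were 1.92 (standard error 0.35) or 1.42 and 1.77 (standard error 0.40) or 1.26, with adjusted p-values between 0.0436 and 0.0535 over both genes and scales.

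The protease cathepsin B gene Ctsb was at 3178, 923 and 2041 CPM unlesioned and 10245, 7742 and 5499.6 CPM at 4dpl, a log2 fold change of 1.94 (standard error 0.48) or 1.46. Pld3, an endolysosomal nuclease of the phospholipase D family, was at 182, 53.05 and 133 CPM and 507, 396 and 347 CPM. Psap, the precursor of the saposins that present sphingolipids to these enzymes, was at 2173, 1376 and 1704 CPM and 6067, 4248 and 3581 CPM. In each of these 3 genes the groups were separate, and unlesioned replicate 2 was the lowest library. Other rises were those of Tpp1 (1.25 or 0.76 on the log2 scale), Scpep1 (1.29 or 0.80), Gusb (1.48 or 1.0) and Ctsz (1.40 or 0.92), the last 2 with overlap on at least 1 scale. Ctsd, cathepsin D, passed with TMM over all genes (adjusted p = 0.0624) and missed on the expressed-gene scale (adjusted p = 0.103), at 4885, 1264 and 2558 CPM and 12847, 9247 and 6706 CPM.

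The proton pump that acidifies lysosomes and the proteins of their membrane moved less. Of 31 genes tested, 23 were higher with TMM over all genes and 3 rose on both scales, Atp6v0d2, Atp6v1a and Cd63. The list median was 0.78, or 0.26 on the expressed-gene scale. Atp6v0d2, a subunit of the pump found in macrophages and osteoclasts, was at 4.61, 0.619 and 5.46 CPM unlesioned and 34.2, 33.7 and 15.6 CPM at 4dpl, a log2 fold change of 2.97 (standard error 0.70) or 2.48. Atp6v1a, the catalytic subunit, went from 105, 93.3 and 100.3 CPM to 282, 220.2 and 183 CPM, a log2 fold change of 1.20 (standard error 0.25) or 0.68. Lamp1, the most used lysosome marker, was at 782, 598 and 699 CPM and 1072, 1161 and 2162 CPM and passed with TMM over all genes only. Its highest value was that of 4dpl replicate 3, the library with the highest summed level of myelin genes.

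Many lysosomal genes carry a short element known as CLEAR in their promoters, to which TFEB and related factors bind. RefSeq promoter windows of GRCm38.p6, from 250 bases before to 50 after a transcription start, were searched for its core TCACGTG on both strands, where the palindrome TCACGTGA counts on both strands and is 1 place. A window was found for 27 of the 33 hydrolase genes, and 8 of them (29.6%) held the core, and for 26 of the proton pump and membrane genes, of which 8 (30.8%) held it. The share was 4.29% over all 27025 genes with a window and 7.23% over the 9110 with a mean of at least 5 CPM in the mutant libraries. Of the members that rose on both scales, 1 of 8 hydrolases with a window (Gla) and 1 of 2 pump and membrane genes (Atp6v1a) held it. Stretches of 80 bases before the start are shown for these 2 genes and, as a gene with several copies that passed on 1 scale only, for Lamp1, each read 5′ to 3′ on the gene's strand with the matches in capitals. They lie at chrX:134601174-134601253 on the minus strand, chr16:44139332-44139411 on the minus strand and chr8:13159079-13159158 on the plus strand.
Gla: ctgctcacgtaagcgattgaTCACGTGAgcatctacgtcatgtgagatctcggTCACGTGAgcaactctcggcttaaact
Atp6v1a: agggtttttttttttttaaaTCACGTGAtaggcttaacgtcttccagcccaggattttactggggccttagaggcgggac
Lamp1: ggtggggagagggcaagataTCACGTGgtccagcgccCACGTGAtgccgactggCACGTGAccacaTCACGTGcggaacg
Gla thus had a pair of palindromes, the first match starting at position -228 from the transcription start, Atp6v1a had 1 palindrome, starting at position -132, and Lamp1 had 4 single cores, the first at position -62. A match is a description of these letters, not a bound site.

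Some genes that export or store the cholesterol and fatty acids of digested myelin also rose. Of 16 genes of sterol efflux and the liver X receptors tested, 12 were higher with TMM over all genes, 7 rose on both scales and none fell, with a list median of 1.09 or 0.59. Apoe and Ch25h, given above, were 2 of the 7. Abca1, the transporter that loads cholesterol onto apolipoproteins, was at 119, 39.98 and 72.4 CPM unlesioned and 427, 219 and 143 CPM at 4dpl, a log2 fold change of 1.77 (standard error 0.46) or 1.30, with overlap on at least 1 scale. Apoc1, the neighbour of Apoe, was at 3.21, 0.525 and 2.58 CPM and 12.8, 12.1 and 10.3 CPM. Nceh1, which splits cholesteryl esters outside the lysosome, was at 64.5, 57.8 and 58.8 CPM and 151, 137 and 111 CPM, and its unlesioned values hardly varied. Nr1h3, which encodes the receptor LXR alpha, was low but separated, at 2.17, 1.33 and 2.31 CPM and 6.75, 6.47 and 3.72 CPM. Lcat, which esterifies cholesterol on lipoproteins, was at 3.56, 0.881 and 1.47 CPM and 4.14, 5.58 and 11.9 CPM, with the highest value in 4dpl replicate 3. Abcg1, the partner transporter of Abca1, had separate groups and passed with TMM over all genes only (log2 fold change 1.05 or 0.56). The summed level of the list was 7710.4, 2357 and 5253 CPM unlesioned and 17226, 16623 and 18341 CPM at 4dpl, where the 3 libraries lay close together. Most of each 4dpl sum was Apoe, whose levels are given above, so the sum says little of the other members.

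Of 24 targets of the PPAR receptors and genes of lipid handling, 12 were higher with TMM over all genes, 6 rose on both scales and none fell. Angptl4, a secreted inhibitor of lipoprotein lipase, was at 1.47, 0.450 and 1.11 CPM unlesioned and 11.2, 8.67 and 4.46 CPM at 4dpl. Its change of 3.0 on the log2 scale (standard error 0.47, adjusted p = 0.0445) or 2.52 (adjusted p = 0.0379) passed the stricter threshold on both scales. Hilpda, a lipid droplet protein that restrains triglyceride breakdown, was at 7.59, 6.83 and 8.27 CPM and 31.6, 29.4 and 15.6 CPM. Fabp3, a fatty acid carrier of muscle and brain, was at 3.24, 0.788 and 1.63 CPM and 12.3, 7.84 and 4.94 CPM. Lpl, Cd36 and Fabp5, described above, were the other members that rose. Plin2, which coats lipid droplets, was at 80.3, 166 and 118 CPM and 497, 457 and 196 CPM and passed with TMM over all genes only. Slc27a1, which brings long-chain fatty acids into cells, was at 42.5, 32.6 and 40.97 CPM and 101, 81.7 and 103 CPM (log2 fold change 1.30, standard error 0.22, adjusted p = 0.0452). It was 1 of 3 solute carriers of 372 tested that rose on both scales, with the metal transporter Slc39a14 and the sugar phosphate exchanger Slc37a2, at 62.4, 27.5 and 44.5 CPM and 171, 99.6 and 90.3 CPM, while 41 solute carriers fell, the share of all genes being 0.559% that rose and 11.0% that fell.

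**Figure D3:**
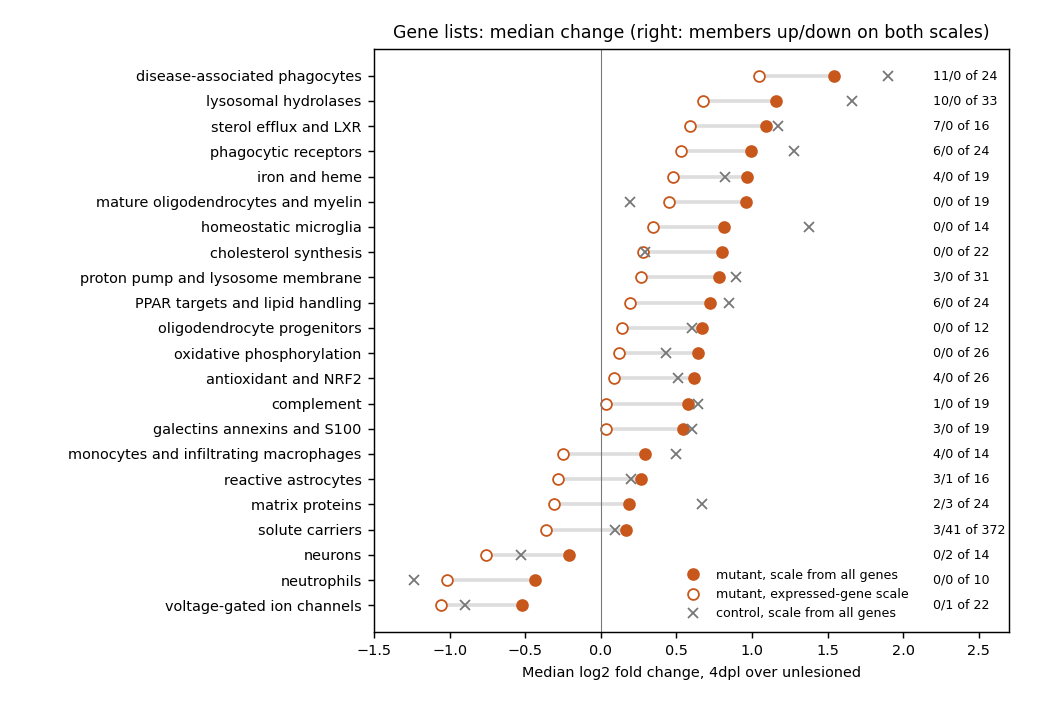
Median log2 fold change of 22 gene lists in the mutant, 4dpl over unlesioned, with TMM over all genes (filled circles) and on the expressed-gene scale (open circles), beside the control on the scale from all genes (crosses). Numbers at the right give members that rose and fell on both scales and the members tested; the phagocyte markers, lysosomal hydrolases and sterol efflux genes have medians of 1.55, 1.16 and 1.09, and 4 lists have a median above 0 on the first scale and below 0 on the second.

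Genes for iron, heme and oxidative defence held some of the steepest rises. Hmox1, heme oxygenase 1, was at 56.8, 95.97 and 68.7 CPM in unlesioned cord and at 2107, 1451 and 268 CPM at 4dpl, so that all 3 lesioned libraries were above all unlesioned ones while replicate 3 was far below the other two. The log2 fold change was 4.11 (standard error 0.87) or 3.59, and with 1 mutant library left out it ranged from 3.57 to 4.62 on the first scale. Of 19 genes of iron and heme tested, 11 were higher with TMM over all genes and 4 rose on both scales. The shares over all genes of at least 5 CPM were 24.6% and 1.31%. Blvra, which reduces the biliverdin that heme oxygenase makes, was at 22.7, 18.5 and 21.9 CPM and 48.9, 46.3 and 41.3 CPM. Slc39a14, a carrier of iron, zinc and manganese, was at 13.4, 8.46 and 11.5 CPM and 43.7, 34.4 and 25.8 CPM. Ftl1, the ferritin light chain, was at 1098, 1546 and 1307 CPM and 5331, 4175 and 2214 CPM, and Fth1, the heavy chain, was at 4694, 4586 and 4795 CPM and 10181, 11006 and 12228 CPM with tight groups. Fth1 passed with TMM over all genes only (adjusted p = 0.0551 and 0.111 on the 2 scales), and both ferritin genes have processed copies that could share reads.

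Of 26 antioxidant genes and targets of NRF2, 9 were higher with TMM over all genes and 4 rose on both scales. Among all genes of at least 5 CPM, 24.6% and 1.31% did so. Gpx3, a secreted glutathione peroxidase and 1 of the 7 genes past the stricter threshold, was at 18.00, 15.2 and 18.5 CPM unlesioned and 66.7, 63.8 and 49.5 CPM at 4dpl (log2 fold change 1.80, standard error 0.27, or 1.28). Prdx1, a peroxiredoxin, was at 444, 289 and 367 CPM and 1193, 1017 and 896 CPM. Srxn1, which restores oxidized peroxiredoxins, was at 15.7, 11.7 and 8.83 CPM and 69.00, 53.3 and 34.5 CPM. Hmox1 was the fourth. The list median was 0.61, or 0.09 on the expressed-gene scale, where genes of at least 5 CPM as a whole had 0.51 and -0.01.

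Genes of reactive astrocytes rose in a few members. Of 16 such genes, 3 rose and 1 fell on both scales. Of all genes tested, 0.559% rose and 11.0% fell, so the 1 fall is no more than that share. Gfap, the intermediate filament of astrocytes, was at 51.8, 50.5 and 45.9 CPM unlesioned and 150.3, 126 and 203 CPM at 4dpl (log2 fold change 1.69, standard error 0.34, or 1.16). Serpina3n, a protease inhibitor induced in reactive astrocytes and also present in oligodendrocytes after injury, was at 53.8, 23.8 and 44.9 CPM and 189, 249 and 418 CPM. It passed the stricter threshold on both scales (adjusted p = 0.0445 and 0.0352). Emp1, an epithelial membrane protein, was at 6.96, 6.75 and 7.79 CPM and 83.3, 55.5 and 31.6 CPM, a log2 fold change of 2.99 (standard error 0.66) or 2.47. Osmr, the receptor for oncostatin M, fell from 2.98, 2.62 and 5.46 CPM to 1.36, 2.04 and 1.24 CPM. Of 12 genes of resting astrocytes, none passed on either scale, and their summed level was 238, 334 and 235 CPM and 296, 241 and 493 CPM.

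Among secreted signals, Cxcl14 rose to 23.3, 21.7 and 10.1 CPM from 4.96, 1.91 and 3.99 CPM (log2 fold change 2.34, standard error 0.39, adjusted p = 0.0452), and Cxcl16, a chemokine that is also a scavenger receptor, rose by 1.36 or 0.89 on the log2 scale. Cxcl12, the chemokine that guides progenitors and neutrophils through CXCR4, fell from 4.53, 2.89 and 4.28 CPM to 1.21, 1.91 and 1.37 CPM. These were the 3 of 28 chemokine and cytokine genes that passed on both scales, where 0.559% of all genes tested rose and 11.0% fell. Of 19 galectins, annexins and S100 genes, 3 rose, Lgals1 by 1.57, Anxa4 by 1.69 and Anxa5 by 1.11 on the log2 scale. Anxa5, which binds phosphatidylserine on dying cells, had the tightest groups of these, at 231, 214 and 187 CPM and 460.2, 441 and 468 CPM. Mmp12, the elastase of macrophages, was even in unlesioned cord at 3.35, 3.26 and 3.46 CPM and uneven at 4dpl, at 30.7, 16.5 and 3.65 CPM, so its rise was carried by replicates 1 and 2. Htr2b, a serotonin receptor of microglia, was on no list and was at 3.33, 0.300 and 2.88 CPM and 24.8, 15.6 and 7.88 CPM, and Gm6977, a predicted gene past the stricter threshold, was at 13.7, 12.3 and 12.6 CPM and 32.1, 34.3 and 33.8 CPM.

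**Figure D4:**
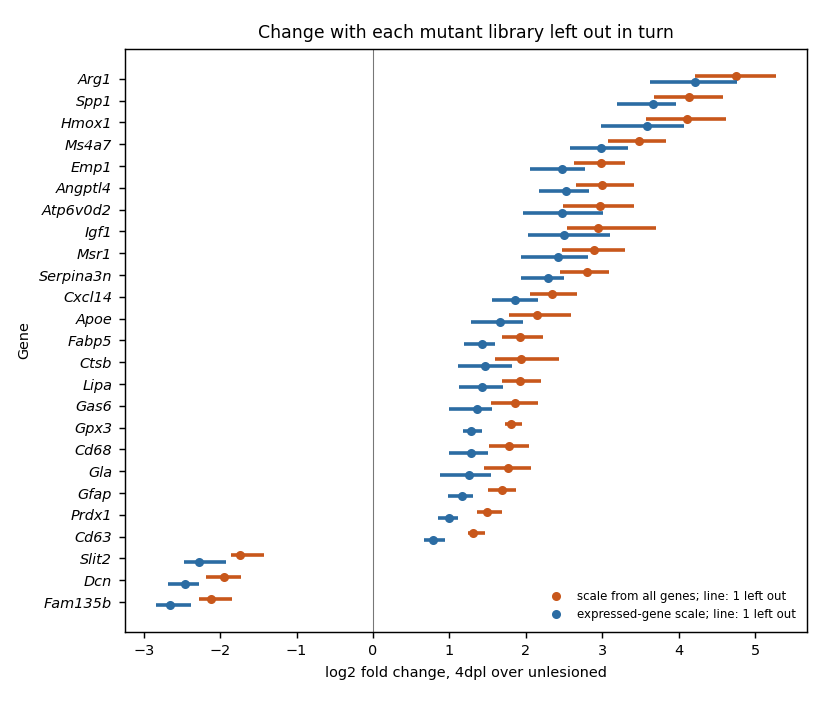
Log2 fold change of 25 named genes, 4dpl over unlesioned, with all 12 libraries in the fit (points) and its range when each of the 6 mutant libraries was left out in turn (lines), with TMM over all genes and on the expressed-gene scale. No line crosses 0, which the choice of genes favours, since genes were named in part for small p-values or separate groups in these libraries. The lines for Arg1 and Hmox1 run from 4.22 to 5.27 and from 3.57 to 4.62 on the scale from all genes.

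Genes of the oligodendrocyte lineage, in which the cre allele acts, did not pass on both scales. Of 19 genes of mature oligodendrocytes and myelin, 1, the transferrin gene Trf, was higher with TMM over all genes and none on both scales. Mbp, which compacts the myelin membrane, was at 4409, 6616 and 4129.8 CPM unlesioned and 6285, 7289 and 17070.0 CPM at 4dpl, and Mog, on the outer surface of the sheath, was at 721, 225 and 529 CPM and 547, 667 and 1655 CPM. In both genes 4dpl replicate 3 stood above the other 5 libraries and the groups overlapped. The list median was 0.96 and fell to 0.38 without mutant 4dpl replicate 3. On the expressed-gene scale it was 0.45 and -0.10 without that library. The summed level of the list was 34543, 16659 and 24162 CPM and 30755, 34864 and 81902 CPM (exact permutation test, two-sided, p = 0.2).

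Of 12 progenitor genes none rose, and their summed level was 768, 277 and 459 CPM unlesioned and 606, 569 and 1311 CPM at 4dpl. Pdgfra, the growth factor receptor that defines progenitors, was at 31.1, 14.5 and 15.9 CPM and 21.5, 20.6 and 25.1 CPM, a log2 fold change of 0.13 (standard error 0.33) that was -0.36 on the expressed-gene scale. Of 22 genes of cholesterol synthesis, which feeds new myelin, 6 were higher with TMM over all genes, a share near the 24.6% of all genes of at least 5 CPM, and none rose on both scales. The list median was 0.80 or 0.28. Ebp, a sterol isomerase, had the smallest p among them, at 53.4, 38.1 and 49.96 CPM and 73.2, 80.3 and 96.96 CPM. A window was found for 15 of these genes, and 2 of them, Hmgcs1 and Srebf2, held the sterol response core TCACCCCA on either strand (13.3%), which 1.77% of all genes with a window held. Hmgcs1, the enzyme that makes HMG-CoA, was at 329, 122 and 164 CPM and 268, 319.5 and 661 CPM with overlap, and 80 bases before its start, at chr13:119690194-119690273 on the plus strand with the match in capitals, read as follows.
Hmgcs1: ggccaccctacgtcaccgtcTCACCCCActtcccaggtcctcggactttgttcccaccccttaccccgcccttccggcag
Of 26 subunits of oxidative phosphorylation, 20 were higher with TMM over all genes, where 24.6% of genes of at least 5 CPM were, and none rose on both scales, Ndufa9 of complex I being at 61.4, 51.6 and 52.95 CPM and 104, 91.5 and 104 CPM. Of 20 enzymes of DNA methylation and hydroxymethylation, 4 were higher with TMM over all genes, below that background share, and 1 rose on both scales, Apobec1, an RNA and DNA cytidine deaminase, at 48.7, 32.8 and 38.6 CPM and 128, 118 and 71.2 CPM.

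The genes that fell were of other kinds. Of the 40 falls in genes of at least 5 CPM, 9 were immunoglobulin genes and 10 were predicted genes. Ighv1-15, an immunoglobulin segment, was at 12.9, 18.2 and 0.181 CPM unlesioned and 0.0450, 0 and 0.0360 CPM at 4dpl, so 2 unlesioned libraries carried it. Predicted genes with satellite-like sequence made up 9 of the 35 genes past the stricter threshold, and all 12 of these tested fell. Gm10800, the most abundant, was at 588, 1564 and 3535 CPM and 202, 152 and 87.2 CPM. Fau-ps2, a pseudogene of a ribosomal protein gene, was at 8.22, 27.6 and 17.4 CPM and 3.39, 1.45 and 1.78 CPM, and near-identical copies of all these could have shared reads in the counting. Genes with a function in other organs were among the 35 too, such as Abcb11, the bile salt pump of the liver, at 1.79, 2.87 and 2.69 CPM and 0.432, 0.322 and 0.198 CPM, and Vmn1r184, a vomeronasal receptor, at 2.71, 3.49 and 5.62 CPM and 0.318, 0.403 and 0.216 CPM. Of 1114 olfactory, vomeronasal and trace-amine receptor genes tested, which serve the sensory cells of the nose, 404 fell and none rose. Their share of the counts was 738, 1010 and 1615 CPM without TMM scaling in the unlesioned libraries and 248, 174 and 85.6 at 4dpl, where the values in the control were 316, 705 and 1319 and then 109.9, 108 and 196. Genes with at least 1 count numbered 44146, 42840 and 44516 unlesioned and 37419, 35663 and 34207 at 4dpl. Genes under 5 CPM together held 1.96%, 2.31% and 2.69% of the counts and then 1.32%, 1.06% and 1.23%. These measures move with the falls reported here, and their part in them was not tested.

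Falls in genes of at least 5 CPM included some neural and matrix genes, although 3 of these 40 falls were in any list. As lists, the neuronal and matrix genes fell at a share near the background, as given below. Dcn, decorin, a matrix proteoglycan of fibroblasts, was at 21.1, 11.4 and 20.04 CPM unlesioned and 4.41, 3.17 and 5.97 CPM at 4dpl, a log2 fold change of -1.95 (standard error 0.42) or -2.47. Slit2, an axon guidance signal, was at 6.41, 6.43 and 11.03 CPM and 2.62, 2.68 and 1.82 CPM, and its receptor gene Robo2 was at 6.04, 7.69 and 9.11 CPM and 3.98, 2.52 and 2.07 CPM. Both pairs of groups were separate. Syt1, the calcium sensor of synaptic vesicles, was at 6.84, 5.57 and 10.2 CPM and 3.55, 3.49 and 3.36 CPM. Ntrk3, a neurotrophin receptor gene, fell from 8.90, 7.05 and 16.5 CPM to 3.66, 5.45 and 5.32 CPM, by a log2 value of -1.17 (standard error 0.43) or -1.71. Nrg1, a growth factor of axons and glia, was at 4.92, 13.3 and 7.79 CPM and 2.93, 6.36 and 3.20 CPM, with overlap on at least 1 scale and the highest value of each group in replicate 2. The other named falls were those of Fam135b (-2.12), Rian (-1.55), a long noncoding RNA, Plce1 (-1.23), Alms1 (-1.14) and Pdzd2 (-1.12).

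Of 24 matrix proteins, Fn1 and Spp1 rose and 3 fell, a share near the 11.0% of all genes that fell. The 3 were Dcn and the laminin chains Lamb1 (-1.85, from 2.36, 2.92 and 3.42 CPM to 0.978, 0.752 and 0.683 CPM) and Lama2 (-1.56, from 4.00, 4.42 and 5.93 CPM to 1.80, 1.58 and 1.49 CPM). Of 14 neuronal genes Syt1 and Isl1 fell, the latter with under 1 CPM in every library, and that share was near the background too. Of 22 voltage-gated ion channels, 1 fell on both scales, the sodium channel gene Scn3a at 4.11, 3.94 and 6.98 CPM and 1.82, 1.64 and 1.80 CPM, and 8 were lower on the expressed-gene scale, where 16.9% of all genes were. The summed level of the neuronal list was 482, 156 and 904 CPM unlesioned and 275, 462 and 535 CPM at 4dpl, with overlap.

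Marker lists of the other cells showed what the gradient had let through. Neutrophil genes were abundant and uneven, with a summed level of 31685, 124950.3 and 73493 CPM unlesioned and 22766, 113419.6 and 35361 CPM at 4dpl, the highest value of each group being that of replicate 2 (exact permutation test, two-sided, p = 0.6). S100a8, the calcium-binding protein that leads this list, was at 8664, 35425 and 22759 CPM and 6371, 33056 and 9701 CPM. None of the 10 neutrophil genes passed on either scale. Erythroid genes summed to 42799.7, 18266 and 25741 CPM and 44403, 35823 and 27380.1 CPM, also without a call among 6. Endothelial genes summed to 38.6, 45.6 and 71.6 CPM and 45.4, 48.2 and 41.1 CPM, those of pericytes and fibroblasts to 58.6, 54.6 and 83.2 CPM and 59.04, 62.6 and 66.2 CPM, and those of lymphocytes to 169, 129 and 132 CPM and 130.3, 134 and 132 CPM, low levels whose groups overlapped. On the expressed-gene scale all 3 of these sums were lower in every 4dpl library than in every unlesioned one (exact permutation test, two-sided, p = 0.1 for each). Schwann cell genes, several of which oligodendrocytes share, summed to 4895, 6846 and 4500.3 CPM and 6923, 7814 and 17939 CPM. Every 4dpl library was above every unlesioned one on the scale from all genes (exact permutation test, two-sided, p = 0.1). The groups overlapped on the expressed-gene scale (same exact test, p = 0.5). These sums lay close to the levels of Mbp alone, given above. Of 8 Schwann cell genes tested, 3 had a log2 fold change above 0, and the list median was -0.48 or -1.01. Without replicate 2 of both mutant groups, a setting chosen after the data were seen, 0 genes rose and 0 fell on both scales. Spp1, Apoe, Ctsb and Hmox1 then had log2 fold changes of 3.75, 1.76, 1.60 and 4.25 on the scale from all genes. On the expressed-gene scale Spp1, Apoe and Ctsb had 3.32, 1.33 and 1.19. The phagocyte markers then had a median of 1.32 or 0.93 and the hydrolases a median of 0.95 or 0.52. The part of the neutrophils in the results was not tested beyond that.

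**Figure D5:**
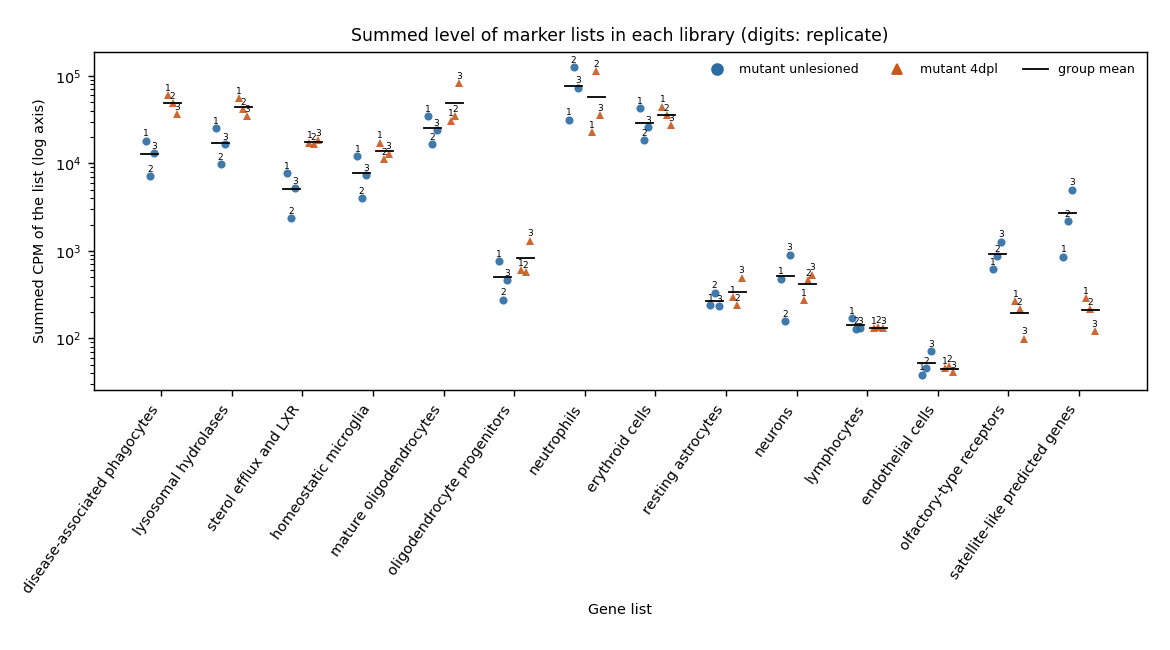
Summed CPM (log axis) of 14 gene lists in each mutant library, unlesioned as circles and 4dpl as triangles, with the group mean of 3 libraries as a bar and the replicate number beside each point. The phagocyte, hydrolase and sterol efflux lists are separated between groups, the neutrophil list is highest in replicate 2 of both groups, the myelin list is highest in 4dpl replicate 3, and the olfactory-type and satellite-like lists are lower in every 4dpl library. Apoe makes up most of each 4dpl sum of the sterol efflux list.

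Whether the mutant responded differently from the control was tested as an interaction over all 12 libraries, and 0 of 31109 genes (0%) passed p under 0.01 and adjusted p under 0.05 in edgeR's quasi-likelihood test. The smallest adjusted p was 0.9999, DESeq2 also called 0, and 1184 genes had an unadjusted p under 0.05. The mutant and control responses do not share libraries. Of the 151 genes of at least 5 CPM that rose in the mutant, 150 had a log2 fold change above 0 in the control. Their medians were 1.47 in the mutant and 1.61 in the control, where the mutant value was used to choose the genes and the control value was not. On this scale, that from all genes, expressed genes as a whole were above 0 in the control too. The control median over all genes was 0.22 at 5 to 10 CPM, 0.39 at 10 to 100 CPM and 0.45 above that. Phagocyte markers had a median of 1.55 in the mutant and 1.90 in the control, lysosomal hydrolases 1.16 and 1.66, sterol efflux genes 1.09 and 1.17, resting microglia 0.82 and 1.38, and myelin genes 0.96 and 0.19. With 1 mutant library left out, the mutant medians ranged from 1.33 to 2.04, 0.93 to 1.54, 0.95 to 1.34, 0.50 to 1.37 and 0.38 to 1.44, in that order. In none of these 5 lists did a gene pass the interaction.

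Single genes that stood furthest apart between genotypes are given as values, since none passed after adjustment. Arg1 had a log2 fold change of 4.74 in the mutant and 1.13 in the control, a difference of 3.61 (standard error 1.37, unadjusted p = 0.0195, from the edgeR fit). Dcn had -1.95 and 0.03, a difference of -1.98 (standard error 0.59, unadjusted p = 0.00439, same fit). Pdgfra had 0.13 and 1.70, a difference of -1.57 (standard error 0.47, unadjusted p = 0.00452, same fit). Gclm, a subunit of the enzyme that starts glutathione synthesis, had 0.87 and -1.04, a difference of 1.91 (standard error 0.49, unadjusted p = 0.00145, same fit). These 4 were picked from the named genes after their values were seen. Genes with nearly equal changes included Fabp5, at 1.93 and 1.94, a difference of -0.01 (standard error 0.47), and Fn1, at 1.92 and 1.92 (difference 0.0, standard error 0.72). That no gene passed does not show that the genotypes responded alike.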

How the data were processed

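RNA from Percoll-enriched spinal cord tissue was sequenced in 12 libraries, of which the 6 Tet1 mutant ones are described and the 6 control ones enter the fit. The authors deposited raw read counts per gene for each library, with no normalization and no pooling. Per the study's methods, reads were aligned with BWA to mm10 and counted on exons with featureCounts; the submitters' processing notes also name STAR. Groups were taken from the labels. Mitochondrial genes are listed at 0 in the count tables and were not analysed here.

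Counts were fitted with edgeR 4.0.16 in R 4.3.3 (filterByExpr over the 4 groups, TMM, quasi-likelihood test, Benjamini-Hochberg adjustment over 31109 genes), with a mean for each group over all 12 libraries. Calls used p under 0.01 with adjusted p under 0.05, the thresholds of the study, and adjusted p under 0.10. The fit was repeated with TMM factors from genes with a mean of at least 10 CPM. Single values per library were compared by exact permutation tests. Tested on simulated data for the mutant comparison, with 200 of 29100 genes changed by a log2 fold of 3, the fit recovered 93.5% and made 5 false calls at the stricter thresholds. RLE factors and TMM from genes of at least 10 CPM gave the same values there. The simulation thus lacks the dependence on scaling seen in these data and does not test the calls against it.

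Genes were named if they passed the stricter thresholds, were among the 12 largest rises or falls of at least 5 CPM with separate groups, or were among the first 4 members or the 4 smallest p-values of a list. Other list members that rose were named to complete a count, after their values were seen, as was Slc37a2, and some list members are counted but not reported here by name. The lists were chosen with earlier results of these data known, and so was the comparison itself. Alternatives covered the scaling, the low-count filter, the libraries in the fit, a replicate block, limma 3.58.1 and DESeq2 1.42.0. Counting error is small at these totals for all but the lowest genes.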

Additional observations from a re-analysis of the deposited data

How the results depend on the processing

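Counts of called genes moved with nearly every choice, while the direction of most named genes did not. That direction is a weak test, because genes were named in part for small p-values or separate groups in the same libraries. Numbers below are higher and lower genes in the mutant, first at p under 0.01 with adjusted p under 0.05 (7 and 35 as reported) and then at adjusted p under 0.10 (2971 and 3431). RLE size factors gave 7 and 50, then 1197 and 3206. TMM from genes of at least 10 CPM gave 26 and 1100, then 174 and 5251, and upper-quartile factors 29 and 928, then 221 and 4716. No filter gave 317 and 630, then 1880 and 2832, a minimum of 10 counts in every library 4 and 29, then 21 and 94, and a mean of at least 1 CPM 2 and 23, then 21 and 122. The 6 mutant libraries alone gave 40 and 732, then 376 and 3404, with 113 rises on both scales. DESeq2 called 1333 and 3962, then 2492 and 6042, limma-voom 386 and 501, then 3686 and 4597, limma-voom with sample weights 3495 and 3305, then 5794 and 6436, and edgeR with legacy set to FALSE 1374 and 3056, then 3986 and 6212. On the scale from genes of at least 10 CPM, the 6 mutant libraries gave 47 and 2383, then 113 and 5103, and limma-voom 23 and 919, then 192 and 5938. Leaving out 1 library gave between 0 and 2615 higher and between 0 and 1883 lower at the stricter threshold, between 0 and 5340 and between 0 and 5006 at the wider one, and between 0 and 610 and between 0 and 4124 on both scales. On the scale from genes of at least 10 CPM, leaving out 1 library gave 111 and 1991, then 610 and 7362, without mutant unlesioned replicate 1, 0 and 1, then 17 and 1023, without unlesioned replicate 2, 0 and 0, then 0 and 9, without unlesioned replicate 3, 0 and 0, then 33 and 2600, without 4dpl replicate 1, 0 and 0, then 36 and 1483, without 4dpl replicate 2, and 0 throughout without 4dpl replicate 3. Leaving out replicate 2 of both mutant groups gave 0 throughout. The cause of these moves was not tested. The comparison between genotypes gave 0 under each alternative run.

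Replicate numbers in the titles were tried as a replicate block. Deviations of libraries with the same title number correlated at 0.25, 0.43 and 0.083, so the numbers were not taken to pair the samples, and not every library correlated best with its own number. The replicate block gave 4 and 0 genes, then 3688 and 2937, with 301 rises on both scales, and on the scale from genes of at least 10 CPM 2 and 1, then 301 and 4504. A block by the sample numbers in the study's methods gave 0 throughout.

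Of 3737 values for 104 named genes under 36 alternatives, 38 changed sign, in 7 genes, none of which was said to have risen or fallen. Tet1 changed to -0.26 with TMM from genes of at least 10 CPM, -0.21 with upper-quartile factors, -0.052 with 10 counts in every library and -0.084 with a mean of 1 CPM. On the scale from genes of at least 10 CPM it was -0.26 in the 6 mutant libraries, -0.30 with the replicate block, -0.28 with limma-voom and -0.14 without replicate 2 of both groups. Pdgfra changed to -0.36, -0.31, -0.16 and -0.19 under the first 4 of these settings, to -0.10 in the 6 mutant libraries and to -0.001 without replicate 2 of both groups, and on the second scale to -0.37, -0.31, -0.32 and -0.42 under the last 4. With 1 library left out on the scale from all genes, Tet1 ranged from -0.056 to 0.50, Pdgfra from -0.058 to 0.59 and S100a8 from -1.44 to 0.076. On the scale from genes of at least 10 CPM, leaving out mutant unlesioned replicates 1, 2 and 3 and then 4dpl replicates 1, 2 and 3 gave -0.13, -0.40, -0.26, -0.20, -0.071 and -0.56 for Tet1 and -0.038, -0.54, -0.48, -0.36, -0.31 and -0.43 for Pdgfra. There P2ry12 changed to -0.12 without unlesioned replicate 2, and Olig1, Mog and Mbp to -0.33, -0.17 and -0.094 without 4dpl replicate 3.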

Other observations

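Several programmes often looked for after demyelination had no gene that rose or fell on both scales. Of 23 interferon-stimulated genes none passed on either scale, and their summed level was 1965, 2106 and 1841 CPM unlesioned and 2410.1, 2307 and 1325 CPM at 4dpl, with overlap on the scale from all genes (exact permutation test, two-sided, p = 1.0) and every 4dpl library below every unlesioned one on the expressed-gene scale (same exact test, p = 0.1). The list median was 0.16 or -0.34 on the 2 scales. Of 18 genes of antigen presentation none passed, with sums of 5809.9, 5427 and 5219 CPM and 8764, 8671 and 6085 CPM, where every 4dpl library was above every unlesioned one on the scale from all genes (exact permutation test, two-sided, p = 0.1) but not on the expressed-gene scale (same exact test, p = 1.0). Of 28 cell cycle genes 2 were higher with TMM over all genes, with sums of 1098, 1789 and 1152 CPM and 1689.9, 2038 and 1110.1 CPM that overlapped. Of 30 autophagy genes 6 were higher with TMM over all genes, where 24.6% of all genes of at least 5 CPM were, and the list median was 0.53, or 0.0 on the expressed-gene scale.

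Immediate early genes, which dissociation of tissue can induce, summed to 11877, 10912 and 10318 CPM unlesioned and 14379, 16005 and 15463 CPM at 4dpl, and none of 18 passed. Of 22 chaperones and stress genes 5 were higher with TMM over all genes, near that background share, and of 27 glycolysis and pentose phosphate genes 2 were. Of 12 genes of premyelinating oligodendrocytes 1 was higher with TMM over all genes, and the summed level was 708, 479 and 441 CPM and 692, 652 and 1226 CPM, highest in 4dpl replicate 3.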
